A study of Mus musculus with 24 samples.

Results

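The endoplasmic reticulum (ER) unfolded protein response (UPR) genes described here are 10 genes of ER protein folding and quality control: the chaperones and folding factors Hspa5, Hsp90b1, Calr, Pdia4, Dnajb9, Sdf2l1 and Creld2, the degradation factors Herpud1 and Edem1, and the transcription factor Xbp1. They were chosen by symbol, with earlier results of these data known. All 10 were found among the 54242 gene symbols of the deposited table, and all 10 passed the filter on low values. Expression was measured by RNA-seq in 24 libraries of CGR8, a mouse embryonic stem cell (ESC) line, 3 libraries in each of 8 groups. The study asked how ESCs respond to the loss of RSL24D1, a factor of large ribosomal subunit biogenesis, before and during differentiation with retinoic acid (RA).

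The 8 groups combine siRNA, rescue and day. All cells received an siRNA, either a control (si-CTL) or one against Rsl24d1 (si-Rsl24d1). Cells without rescue had no doxycycline. The labels give them an empty vector (empty_vector), whereas the study describes them as the rescue line left uninduced. Cells with rescue (vector RSL24D1_OE) received doxycycline, which induces an ectopic Rsl24d1 reading frame that resists the siRNA, in a puromycin-selected CGR8 line not stated to be 1 clone. Doxycycline and ectopic RSL24D1 came together and cannot be told apart. At day 0 the cells were in serum and LIF, and at day 4 they had been treated with 10 nM RA for 4 days. The labels and the methods disagree on the collection time, the library kit and the presence of LIF with RA. Nothing says that the 3 libraries of a group came from separate cultures, so the p-values measure the spread between these libraries, which may be technical.

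Proteins that enter the ER are folded there by chaperones, and unfolded proteins that build up are sensed by the ER membrane proteins IRE1, PERK and ATF6. IRE1 splices the Xbp1 mRNA, ATF6 is cut to release a transcription factor, and PERK phosphorylates the initiation factor eIF2, which lowers general translation and favours translation of ATF4. XBP1 and ATF6 act on chaperone and degradation genes through the ER stress response element (ERSE), whereas ATF4 acts on genes of amino acid metabolism and redox balance through a composite C/EBP-ATF element. ATF4 is also raised by amino acid shortage, through other kinases of eIF2.

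The promoter sequences are shown because these elements differ between the members, and because Herpud1, whose level varied most over the groups, was the only member with ERSE-II and the composite element. RefSeq windows from 250 bases before to 50 bases after the transcription start (GRCm38.p6) were searched on both strands for exact matches, and all 10 members had 1 window. ERSE (CCAAT, 9 bases, CCACG) was found in the windows of 4 members, Hspa5, Hsp90b1, Calr and Creld2, and in 0.119% of all 32851 windows. ERSE-II (ATTGG, 1 base, CCACG) was found in the Herpud1 window, and in 0.0365% of all windows. The composite C/EBP-ATF element (TGATG, 1 base, AA) was likewise found in the Herpud1 window and in that of no other member, against 3.97% of all windows. Its match in Herpud1 lies on the minus strand, 112 to 105 bases before the start. The stretches with ERSE, ERSE-II or the composite element in capitals are, 5′ to 3′ on the strand of the gene:
Hspa5, chr2:34772015-34772053, plus strand: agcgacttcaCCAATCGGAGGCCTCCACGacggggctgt
Calr, chr8:84847065-84847103, minus strand: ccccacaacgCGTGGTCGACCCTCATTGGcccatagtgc
Creld2, chr15:88819510-88819548, plus strand: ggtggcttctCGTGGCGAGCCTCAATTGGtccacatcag
Hsp90b1, chr10:86705523-86705666, minus strand: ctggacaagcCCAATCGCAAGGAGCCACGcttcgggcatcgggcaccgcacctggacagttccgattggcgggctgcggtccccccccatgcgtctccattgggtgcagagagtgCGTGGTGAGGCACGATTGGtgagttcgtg
Herpud1, chr8:94386307-94386397, plus strand: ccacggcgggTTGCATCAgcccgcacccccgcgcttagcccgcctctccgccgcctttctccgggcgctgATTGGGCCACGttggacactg

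In these lines the first capitals of Herpud1 are the composite element and the second are ERSE-II, and all capitals of the other 4 genes are ERSE, of which Hsp90b1 holds 2. The UPR element core TGACGTG was found in the window of 1 member, Hspa5, and in 2.01% of all windows. The short site CCACG alone was found in 9 of the 10 members, all but Xbp1, and in 32.8% of all windows, so such a match is common. Sdf2l1, Pdia4, Dnajb9 and Edem1 had this short site and no full element in these windows. In the GENCODE vM21 annotation of GRCm38, Herpud1 spans chr8:94386438-94395377, Hspa5 chr2:34771970-34777547 and Sdf2l1 chr16:17130138-17132383. The longest Hspa5 model there begins before the stretch shown, so its ERSE is upstream of the RefSeq start and not of that one. A match is a description of the letters and says nothing about which factor was bound in these cells.

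Levels are given as log2(TPM + 1). TPM (transcripts per 1000000) is a share of all transcripts that corrects for their length. It keeps no read number and hence no depth, and the precision rests on 3 libraries per group. Rsl24d1 checks the labels. At day 0 without rescue it was at 7.22, 7.14 and 7.10 after si-CTL and at 5.23, 5.28 and 5.07 after si-Rsl24d1, a log2 fold change of -1.95 (SE 0.07, adjusted p = 3.24e-14 from limma). With rescue the si-Rsl24d1 libraries were at 6.70, 6.60 and 6.94, of endogenous and ectopic transcripts together. At day 4 the groups without rescue no longer differed by the test, with 6.60, 6.67 and 6.61 after si-CTL and 6.50, 6.61 and 6.65 after si-Rsl24d1 (log2 fold change -0.04, adjusted p = 0.66 from limma). All 6 pluripotency markers of the ESC label were expressed, with summed TPM of 3922 to 6987 over the libraries. The largest part was Dppa5a, and the markers did not move together with RA. In si-CTL cells without rescue, 2 of the 6 were higher at day 4 and 4 were lower. There Dppa5a was at 2513 to 2680 TPM at day 0 and 5299 to 5370 TPM at day 4. Pou5f1 was at 1095 to 1123 TPM at day 0 and 496 to 547 TPM at day 4. Primitive endoderm markers summed to 206 to 297 TPM at day 0, with Gata4, Gata6, Sox17 and Sox7 under 1 TPM in every library. At day 4 they summed to 428 to 770 TPM, with Sox7 still under 1 TPM. Sparc made up most of each sum. In bulk RNA, fewer cells of a type and less RNA per cell cannot be told apart.

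By TPM, which allows levels to be compared between genes, the members span a wide range. The lectin chaperone Calr, the HSP90 family chaperone Hsp90b1 and the HSP70 family chaperone Hspa5 were highest, with group means of 318 to 394, 278 to 414 and 212 to 310 TPM. Below them were the disulfide isomerase Pdia4 (64.8 to 85.4 TPM) and Xbp1 (58.7 to 92.3 TPM, spliced and unspliced forms together). Creld2, an ER protein of the disulfide isomerase type, had group means of 36.8 to 51.8 TPM, and Sdf2l1, an ER protein that works with HSPA5 and its co-chaperones, 20.3 to 29.5 TPM. Lowest were Herpud1 (10.2 to 24.7 TPM), which encodes an ER membrane protein of the HRD1 ubiquitin ligase complex, Edem1 (12.5 to 22.1 TPM), which delivers misfolded glycoproteins to degradation, and Dnajb9 (11.8 to 15.2 TPM), a J-domain co-chaperone of HSPA5. Between its lowest and highest group mean, Herpud1 spanned 1.19 on the log2(TPM + 1) scale. The other 9 members spanned 0.31 (Calr) to 0.78 (Edem1).

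**Figure D1:**
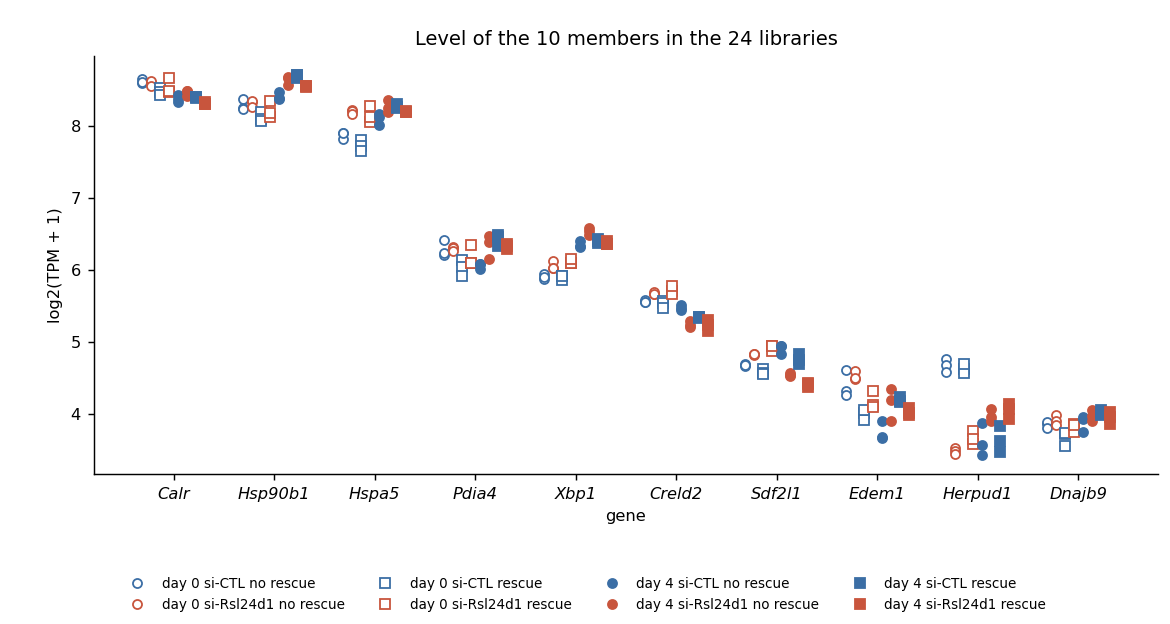
Level of each member, log2(TPM + 1), in the 24 libraries, with members ordered by mean level. Colour gives the siRNA, shape the rescue and fill the day. Herpud1 is split, with the 6 si-CTL libraries of day 0 between 4.57 and 4.77 and all other libraries between 3.43 and 4.14.

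At day 0, Herpud1 and Hspa5 moved in opposite directions with knockdown of Rsl24d1. Herpud1 fell by more than the 1.8-fold threshold used for differential expression, whereas Hspa5 rose modestly and the other large chaperones Hsp90b1, Calr and Pdia4 did not pass the test. Without rescue, 4 of the 10 members passed an adjusted p below 0.01 (3 higher, 1 lower), against 30.4% of all 16447 genes tested. Only Herpud1 was also past 1.8-fold, as were 4.18% of all genes. The median log2 fold change was 0.09 over the members and -0.01 over all genes tested. With rescue in both arms, 5 members passed (4 higher, 1 lower), against 13.7% of all genes, and Herpud1 was again the only member past 1.8-fold, against 1.36%. The medians were then 0.16 for the members and 0.00 for all genes tested. With the libraries scaled by median of ratios, the counts were 1 higher and 1 lower without rescue, and 3 higher and 1 lower with rescue. Of all 16447 genes, 5536 then passed without rescue and 2936 with rescue.

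Among the degradation factors, Herpud1 without rescue was at 4.77, 4.68 and 4.59 in si-CTL and at 3.53, 3.49 and 3.45 in si-Rsl24d1 libraries. All si-Rsl24d1 libraries were below all si-CTL libraries. The log2 fold change was -1.19 (SE 0.10, adjusted p = 7.06e-09 from limma), from 24.7 to 10.2 TPM in the mean. With rescue, Herpud1 was at 4.62, 4.57 and 4.71 in si-CTL and at 3.58, 3.77 and 3.66 in si-Rsl24d1 libraries. Again the groups did not overlap, and the log2 fold change was -0.96 (SE 0.10, adjusted p = 4.82e-07 from limma). The difference between the effects with and without rescue was 0.23 (95% interval -0.06 to 0.52), and it did not pass the test (adjusted p = 0.429 from limma). Edem1, in the same pathway, was 4.61, 4.33 and 4.27 in si-CTL and 4.49, 4.60 and 4.50 in si-Rsl24d1 libraries without rescue, with overlapping groups and a log2 fold change of 0.13 (95% interval -0.08 to 0.34).

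Of the chaperones, Hspa5 without rescue was at 7.91, 7.82 and 7.91 in si-CTL and at 8.23, 8.22 and 8.17 in si-Rsl24d1 libraries. The gene encodes BiP, the main ER chaperone of the HSP70 family and a regulator of the UPR sensors, and its groups did not overlap. The log2 fold change was 0.33 (SE 0.05, adjusted p = 5.82e-05 from limma), or 1.25-fold. With rescue, Hspa5 was at 7.82, 7.72 and 7.66 in si-CTL and at 8.07, 8.13 and 8.28 in si-Rsl24d1 libraries, a log2 fold change of 0.43 (SE 0.05, adjusted p = 6.78e-06 from limma). Hsp90b1, which carries 2 ERSE matches in its promoter window, had a log2 fold change of 0.03 without rescue (95% interval -0.08 to 0.13) and 0.10 with rescue (95% interval -0.01 to 0.20). The intervals of the other ERSE gene of high level, Calr, were -0.12 to 0.06 and -0.03 to 0.15. These intervals leave out a change as large as that of Hspa5 in the same comparison.

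Pdia4, which forms and exchanges disulfide bonds, had a log2 fold change of 0.01 without rescue (95% interval -0.16 to 0.18) and 0.15 with rescue (95% interval -0.02 to 0.32). For Dnajb9 the values were 0.06 (95% interval -0.07 to 0.20) and 0.15 (95% interval 0.01 to 0.28). Sdf2l1 was at 4.67, 4.71 and 4.68 in si-CTL and at 4.82, 4.83 and 4.83 in si-Rsl24d1 libraries without rescue. The spread within each group was small, and all si-Rsl24d1 libraries were above all si-CTL libraries. The log2 fold change was 0.14 (SE 0.04, adjusted p = 0.0058 from limma), but the call was lost without any 1 of the 6 libraries, at values of 0.14 to 0.15, and after scaling (0.13, adjusted p = 0.0371 from limma). With rescue it was larger, at 4.63, 4.57 and 4.57 in si-CTL and 4.95, 4.89 and 4.95 in si-Rsl24d1 libraries. The log2 fold change was then 0.34 (SE 0.04, adjusted p = 1.88e-06 from limma), and the call held without each library.

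Creld2 rose by 0.19 with rescue (SE 0.04, adjusted p = 0.00153 from limma), a call lost without replicate 3 of either group (0.16 each time) and after scaling (0.16, adjusted p = 0.0122 from limma). Without rescue, its log2 fold change was 0.11 (SE 0.04, adjusted p = 0.0314 from limma), although all 3 si-Rsl24d1 libraries (5.67, 5.70 and 5.67) were above all 3 si-CTL libraries (5.59, 5.56 and 5.56). Xbp1, the transcription factor of the IRE1 branch, was at 5.88, 5.96 and 5.91 in si-CTL and 6.13, 6.04 and 6.04 in si-Rsl24d1 libraries without rescue. Its log2 fold change was 0.16 (SE 0.04, adjusted p = 0.00145 from limma), with no overlap, and 0.12 with the call lost without si-Rsl24d1 replicate 1. It was 0.14 after median of ratios scaling and did not pass (adjusted p = 0.0318 from limma). With rescue Xbp1 rose by 0.22 (SE 0.04, adjusted p = 0.000133 from limma). The gene symbol does not separate the spliced form made by IRE1 from the unspliced form.

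**Figure D2:**
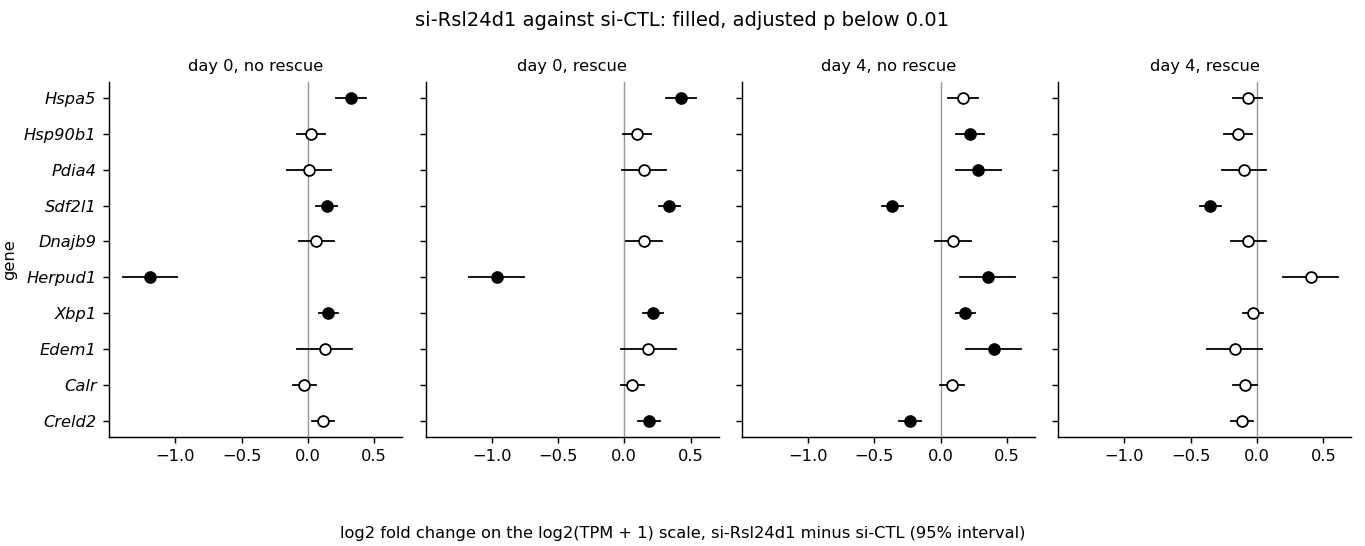
Log2 fold change of each member on the log2(TPM + 1) scale, si-Rsl24d1 minus si-CTL, with its 95% interval, at day 0 and day 4 without and with rescue (3 libraries per group). Filled points passed an adjusted p below 0.01 in limma. Herpud1 is at -1.19 and -0.96 at day 0 and at 0.35 and 0.40 at day 4, and Sdf2l1 and Creld2 also change side between the days.

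The remaining genes of the pathway were read from lists chosen by function, to be set against the 30.4% of all genes that passed without rescue and the 13.7% with rescue. Of 6 genes downstream of PERK, 4 fell and 0 rose without rescue, with a median log2 fold change of -0.80. Chac1, which encodes an enzyme that degrades glutathione, fell by 2.91 (SE 0.19, adjusted p = 2.7e-10 from limma) and Trib3, a pseudokinase, fell by 1.26 (SE 0.17, adjusted p = 5.58e-06 from limma). The 2 others that fell, named after their values were seen, were Atf4 (-0.80) and the asparagine synthetase Asns (-0.80), and the proapoptotic transcription factor Ddit3 and the eIF2 phosphatase subunit Ppp1r15a did not pass. With rescue, 5 of the 6 fell and 0 rose (median -0.75). Herpud1 was thus lower in the same libraries as Atf4 and Chac1, and Hspa5 was higher in them. Median of ratios scaling left the counts of this list as they were.

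The lists of ER genes outside the PERK branch were counted in the same way at day 0 without rescue, against the same 30.4%. Of 18 other ER chaperones and folding enzymes, 2 rose and 6 fell, with a median of -0.09. The disulfide isomerase Pdia3 rose by 0.26 and the HSPA5 partner Sdf2 by 0.22, whereas Cnpy2 was at -0.56 and the HSPA5 exchange factor Sil1 at -0.38. Of 12 other genes of ER-associated degradation, 2 rose and 1 fell (median 0.01). The risers were Selenos, at 0.48, and the ubiquitin ligase Syvn1, at 0.44, whose product HRD1 forms a complex with the Herpud1 product, and the gene that fell was Edem2, at -0.23. Among 6 genes of the UPR sensors and their processing, 1 rose, the ATF6 protease Mbtps2 (0.32), and 0 fell, or 2 and 2 after median of ratios scaling.

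Of 16 genes of the translocon, signal peptidase and N-glycosylation, 0 rose and 2 fell, Ssr2 (-0.23) and Ostc (-0.21). Of 16 cytosolic and mitochondrial chaperones, 2 rose and 5 fell (median -0.12), with Hspa1a at 0.66 and Dnajb1 at 0.36 as the rises and Hspa4 (-0.39) and Cct5 (-0.30) as the largest falls. After median of ratios scaling the counts were 1 and 3 for the translocon list and 2 and 9 for these chaperones. Hspa1a and Hspa1b are near-identical copies, and reads may be divided between them. With rescue, the counts of these lists were 2 higher and 1 lower for other chaperones, 2 and 1 for degradation, 0 and 0 for the sensors, 0 and 1 for the translocon list, and 2 and 0 for cytosolic chaperones. Scaling turned them into 1 and 1, 2 and 1, 0 and 1, 1 and 1, and 4 and 3. Beside these values, the pluripotency markers summed to 4894 to 5062 TPM in si-CTL and 3922 to 3973 TPM in si-Rsl24d1 libraries without rescue, and 5 of 6 were lower. The part of that difference in the values of the members was not tested.

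Rescue against no rescue was compared next, at day 0 within each siRNA. In si-CTL cells, 0 of the 10 members passed in limma, against 0.0122% of all genes, and 7 had an unadjusted p below 0.05, against 41.0% of all genes, and the median of all genes was shifted by -0.12. The median of the members was -0.14, or 0.01 after scaling. In si-Rsl24d1 cells 0 passed, against 15.3% of all genes, and 2 had an unadjusted p below 0.05, against 42.9%. The all-gene median was -0.11, and scaling by median of ratios gave 2 members, Sdf2l1 and Creld2, both higher, against 2570 of 16447 genes. Herpud1 was at 3.58, 3.77 and 3.66 with rescue and 3.53, 3.49 and 3.45 without rescue in si-Rsl24d1 cells. These groups did not overlap, but the difference of 0.18 (95% interval -0.02 to 0.39) did not pass the test, while Rsl24d1 itself rose by 1.55 in the same comparison. The interaction of siRNA and rescue at day 0 passed for 0 members, against 2.09% of all genes, and 1 had an unadjusted p below 0.05, against 17.6%.

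With RA, Herpud1 fell in control cells and rose in knockdown cells. In si-CTL cells without rescue it went from 4.77, 4.68 and 4.59 at day 0 to 3.57, 3.88 and 3.43 at day 4. These groups did not overlap, and the log2 fold change was -1.05 (SE 0.10, adjusted p = 1.21e-08 from limma). Under si-Rsl24d1 without rescue Herpud1 went from 3.53, 3.49 and 3.45 to 3.90, 3.97 and 4.08, a rise of 0.49 (SE 0.10, adjusted p = 0.000206 from limma). With rescue, it fell by 0.99 in si-CTL cells (SE 0.10, adjusted p = 3.1e-08 from limma), to 3.83, 3.48 and 3.63 at day 4. In the rescued si-Rsl24d1 libraries Herpud1 rose by 0.38 (SE 0.10, adjusted p = 0.00216 from limma), to 4.08, 4.14 and 3.94. That last call was lost without day 0 replicate 1 (0.33) or day 4 replicate 2 (0.34), and after scaling (0.30, adjusted p = 0.0112 from limma).

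The other members followed RA in part. Without rescue, 6 members passed in si-CTL cells (3 higher, 3 lower), against 60.9% of all genes, and 1 of them, Herpud1, was past 1.8-fold, against 15.0%. Under si-Rsl24d1, 6 passed (3 higher, 3 lower), against 55.8%. With rescue, 8 passed in si-CTL cells (6 higher, 2 lower), against 59.2%, and Herpud1 was again the only member past 1.8-fold, against 15.6%. In rescued si-Rsl24d1 cells 6 passed (3 higher, 3 lower), against 58.1%. Of the genes tested, the greater part passed with RA in each of the 4 comparisons, so a member count of 6 is near the background, and only the 8 in rescued si-CTL cells is further above it. With median of ratios scaling the counts, higher and lower, were 4 and 3, 3 and 4, 5 and 3, and 2 and 3 in the same order. Of all 16447 genes, 10152, 9586, 10104 and 9964 then passed.

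Xbp1 rose with RA in all 4 comparisons, from 5.88, 5.96 and 5.91 to 6.40, 6.33 and 6.34 in si-CTL cells without rescue. Its log2 fold changes were 0.44 under si-CTL and 0.48 under si-Rsl24d1 without rescue, and 0.51 and 0.26 with rescue. Hsp90b1 rose in si-Rsl24d1 cells, by 0.33 without and 0.33 with rescue, and in rescued si-CTL cells by 0.57, and was at 0.13 (adjusted p = 0.0275 from limma) in the remaining comparison, where scaling made it 0.26, past the threshold (adjusted p = 4.93e-08 from limma). Hspa5 rose in si-CTL cells, by 0.23 without rescue and 0.55 with rescue, from its low level at day 0. After scaling these rises were 0.36 and 0.39, so their difference in size depended on the scaling. Under si-Rsl24d1, where Hspa5 was already high at day 0, its changes were 0.07 (95% interval -0.04 to 0.18) and 0.05 (95% interval -0.06 to 0.16).

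Sdf2l1 moved in opposite directions under the 2 siRNAs. In si-CTL cells without rescue it rose from 4.67, 4.71 and 4.68 to 4.95, 4.84 and 4.95, and in si-Rsl24d1 cells it fell from 4.82, 4.83 and 4.83 to 4.57, 4.55 and 4.54. None of these day 4 groups overlapped its day 0 group, and the log2 fold changes were 0.23 and -0.28. With rescue they were 0.17 and -0.52, of which the first was 0.03 with median of ratios scaling and did not pass. Creld2 fell by 0.43 in si-Rsl24d1 cells without rescue and by 0.48 with rescue, and was at -0.08 and -0.18 in si-CTL cells, of which the second passed.

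Edem1 fell by 0.65 in si-CTL cells without rescue, from 4.61, 4.33 and 4.27 to 3.67, 3.68 and 3.90. Under si-Rsl24d1 without rescue Edem1 fell by 0.38, a call lost without day 0 replicate 2 (-0.34) or day 4 replicate 1 (-0.25), and with rescue it did not pass in either siRNA. Calr fell by 0.24 in si-CTL cells without rescue and by 0.23 in rescued si-Rsl24d1 cells. After scaling it passed as lower in all 4 comparisons, at -0.11 to -0.31. Pdia4 and Dnajb9 rose by 0.39 and 0.34 in rescued si-CTL cells and did not pass elsewhere.

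**Figure D3:**
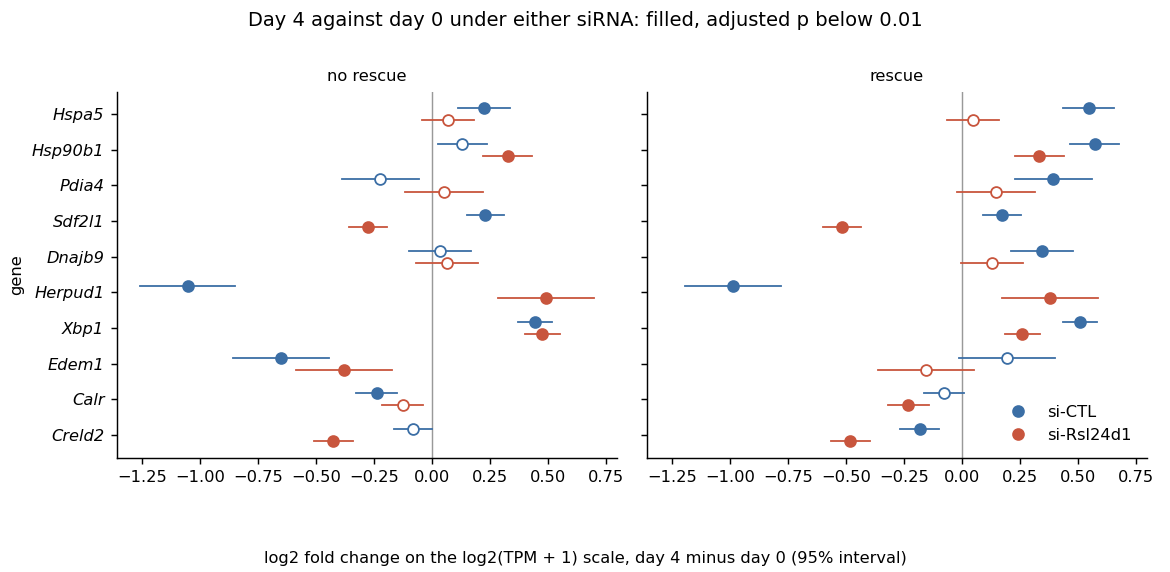
Log2 fold change of each member on the log2(TPM + 1) scale, day 4 of RA minus day 0, with its 95% interval, under si-CTL and si-Rsl24d1, without rescue and with rescue (3 libraries per group). Filled points passed an adjusted p below 0.01 in limma. Herpud1 is at -1.05 and -0.99 in si-CTL and at 0.49 and 0.38 in si-Rsl24d1 cells, and Sdf2l1 lies on opposite sides of 0 under the 2 siRNAs.

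At day 4, the knockdown effect on Sdf2l1, Creld2 and Herpud1 had the opposite sign to that at day 0, but only Sdf2l1 passed at both days without and with rescue. Creld2 did not pass at day 0 without rescue or at day 4 with rescue, and Herpud1 did not pass at day 4 with rescue. Without rescue, 7 members passed (5 higher, 2 lower), against 30.9% of all genes. The median change of all genes tested was 0.13 here, however. With median of ratios scaling 4815 of 16447 genes passed, and 0 members were higher and 2, Sdf2l1 and Creld2, were lower. The 5 rises are therefore given as values that depend on the scaling. They were Edem1 (0.40), Herpud1 (0.35), Pdia4 (0.28), Hsp90b1 (0.22) and Xbp1 (0.19), which became 0.24, 0.20, 0.12, 0.05 and 0.02 after scaling. Hspa5 was at 0.17 (adjusted p = 0.0148 from limma), and at 0.00 after scaling, while Sdf2l1 and Creld2 became -0.53 and -0.40.

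Some of these calls were also lost with 1 library left out. Xbp1 kept its call with each library left out, and Hsp90b1 lost it without si-Rsl24d1 replicate 2 (0.20). Pdia4 lost it without any library but si-Rsl24d1 replicate 1, at 0.22 to 0.30. Edem1 lost it without si-CTL replicate 1 or 2 (0.36 each) and without si-Rsl24d1 replicate 2 (0.37) or 3 (0.30). Herpud1 lost it without si-CTL replicate 1 (0.33) or 3 (0.26) and without si-Rsl24d1 replicate 2 (0.36) or 3 (0.31).

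Sdf2l1 without rescue was at 4.95, 4.84 and 4.95 in si-CTL and at 4.57, 4.55 and 4.54 in si-Rsl24d1 libraries at day 4. All si-Rsl24d1 libraries were below all si-CTL libraries, the reverse of day 0. The log2 fold change was -0.36 (SE 0.04, adjusted p = 8.65e-07 from limma). Creld2 was at 5.52, 5.46 and 5.48 in si-CTL and at 5.30, 5.21 and 5.25 in si-Rsl24d1 libraries, also with no overlap (log2 fold change -0.23, SE 0.04, adjusted p = 0.000154 from limma). Herpud1 was at 3.57, 3.88 and 3.43 in si-CTL and 3.90, 3.97 and 4.08 in si-Rsl24d1 libraries, where the highest si-CTL library lay just below the lowest si-Rsl24d1 library.

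With rescue at day 4, 1 member passed, Sdf2l1, against 5.87% of all genes. It was at 4.75, 4.83 and 4.70 in si-CTL and at 4.43, 4.42 and 4.38 in si-Rsl24d1 libraries, with no overlap (log2 fold change -0.35, SE 0.04, adjusted p = 3.95e-06 from limma). Herpud1 was at 3.83, 3.48 and 3.63 in si-CTL and 4.08, 4.14 and 3.94 in si-Rsl24d1 libraries. These groups did not overlap either, and the log2 fold change of 0.40 (SE 0.10) just missed the threshold (adjusted p = 0.0102 from limma). It passed with median of ratios scaling, at 0.44. Creld2 was at -0.11 and did not pass.

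**Figure D4:**
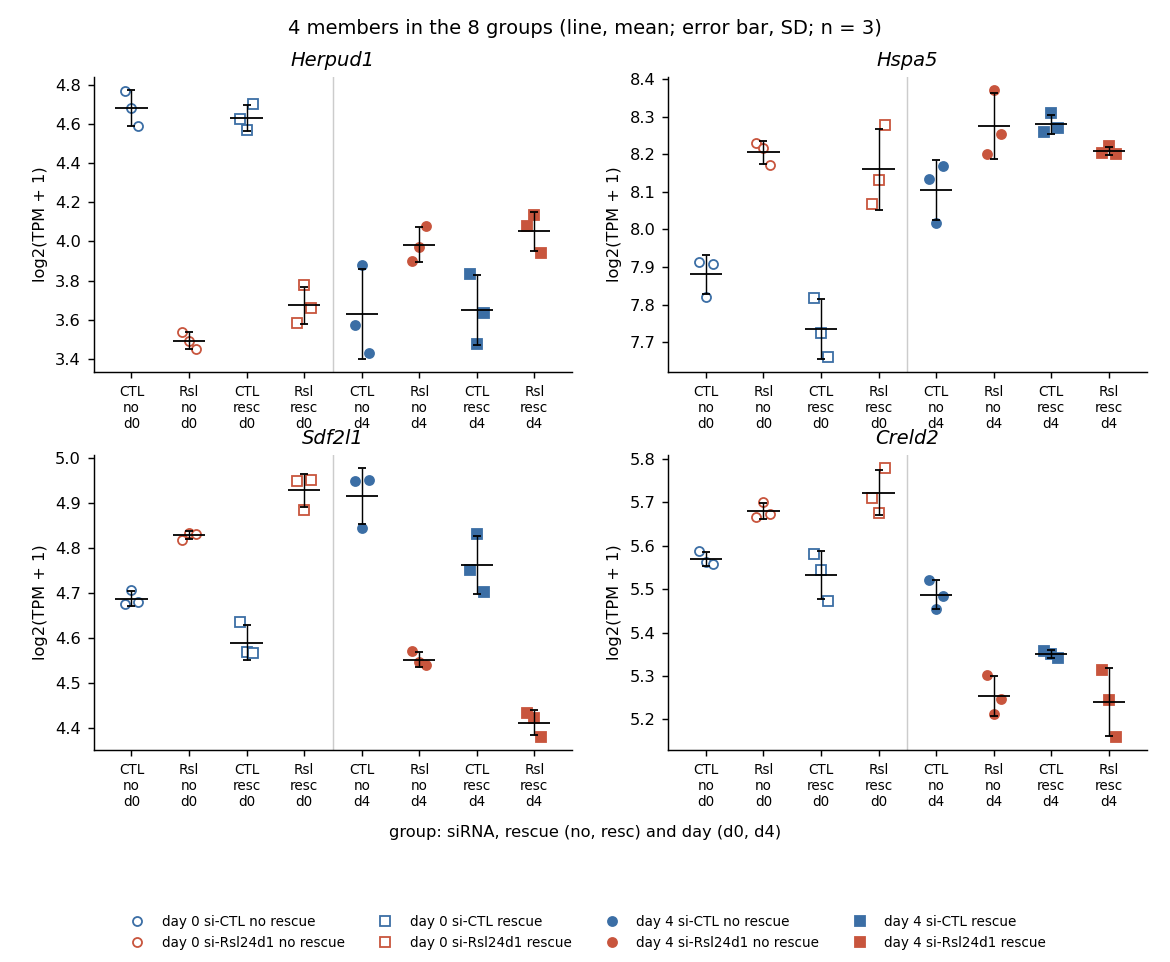
Herpud1, Hspa5, Sdf2l1 and Creld2 in the 8 groups, log2(TPM + 1), with 1 point per library, the mean (line) and SD (error bar) of 3 libraries. At day 0 the si-Rsl24d1 libraries of Sdf2l1 are above their si-CTL libraries (4.82 to 4.83 against 4.67 to 4.71 without rescue), and at day 4 they are below (4.54 to 4.57 against 4.84 to 4.95).

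Markers of other cell types moved with the day 4 comparison. Without rescue, the 10 primitive endoderm markers summed to 428 to 475 TPM in si-CTL and 627 to 770 TPM in si-Rsl24d1 libraries, and 9 of the 9 tested were higher in si-Rsl24d1 cells. Sparc made up most of these sums, at 316 to 347 TPM in si-CTL and 432 to 501 TPM in si-Rsl24d1 libraries. Of the defining transcription factors, in the same order, Gata4 was at 1.04 to 1.77 and 1.97 to 3.54 TPM. Gata6 was at 1.16 to 1.58 and 2.88 to 4.21 TPM, and Sox17 at 0.79 to 1.11 and 1.44 to 2.01 TPM. Sox7 was under 1 TPM in all of these libraries. The 6 fibroblast markers summed to 91.2 to 99.5 TPM in si-CTL and 173 to 241 TPM in si-Rsl24d1 libraries, and 4 of 6 were higher, with Pdgfra under 1 TPM in si-CTL libraries. The neural markers summed to 37.0 to 37.3 and 48.7 to 59.9 TPM, with 2 of 5 tested higher and Neurog2 under 1 TPM. With rescue, primitive endoderm markers summed to 486 to 518 TPM in si-CTL and 554 to 565 TPM in si-Rsl24d1 libraries. The part of these cells in the day 4 differences of the members was not tested.

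Rescue at day 4 gave calls that were lost with 1 library left out. In si-CTL cells, 4 members passed with rescue against without, Edem1 (0.45), Pdia4 (0.37) and Hsp90b1 (0.27) higher and Sdf2l1 (-0.15) lower, against 10.2% of all genes. Scaling by median of ratios gave 3 higher and 2 lower, against 1837 of 16447 genes. The count fell to 0 without si-CTL no rescue replicate 1 or si-CTL rescue replicate 1 or 3, and to 1 without si-CTL no rescue replicate 2. In si-Rsl24d1 cells 1 member passed, Xbp1 (-0.17), against 5.17% of all genes, and 0 passed without no rescue replicate 1 or 3, without rescue replicate 2 or 3, or after scaling.

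Whether the knockdown effect differed between the days was tested directly, as the effect at day 4 minus that at day 0. These tests share their groups with the comparisons above, and a difference that passes need not be a change of sign. At day 4 with rescue, for example, the effects on Hspa5 (-0.07) and Xbp1 (-0.03) did not pass. Without rescue, 3 members passed (1 higher, 2 lower), against 30.9% of all genes, and Herpud1 was past 1.8-fold, against 5.61%. The difference was 1.55 for Herpud1 (SE 0.14, adjusted p = 5.24e-08 from limma), -0.51 for Sdf2l1 (SE 0.05, adjusted p = 5.82e-07 from limma) and -0.34 for Creld2 (SE 0.06, adjusted p = 7.49e-05 from limma). With rescue, 5 passed (1 higher, 4 lower), against 9.95% of all genes, with Herpud1 again past 1.8-fold, against 2.10%. There the differences were 1.37 for Herpud1, -0.69 for Sdf2l1, -0.50 for Hspa5, -0.30 for Creld2 and -0.25 for Xbp1. All of these calls held without each library in turn. With median of ratios scaling Hspa5 also passed without rescue, at -0.31. With rescue Hsp90b1 then passed, at -0.17, and Creld2 (-0.23) and Xbp1 (-0.18) did not. The scaled counts were 1 higher and 3 lower in both, against 4748 of 16447 genes without rescue and 1958 with rescue.

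The interaction of siRNA and day was also read in the genes downstream of PERK. Without rescue 4 of 6 passed with a higher effect at day 4 and 0 with a lower one, against 30.9% of all genes. The median was 0.90, with Chac1 at 3.03 and Trib3 at 1.51. With rescue these numbers were 5 and 0 (median 1.20), against 9.95% of all genes, with Chac1 at 3.16 and Trib3 at 1.95. At day 4 itself, 0 of the 6 passed between si-Rsl24d1 and si-CTL without rescue, against 30.9% of all genes. With rescue 3 rose, against 5.87%, with Chac1 at 0.80 and Trib3 at 0.77. For the other 18 ER chaperones the interaction passed for 4 higher and 3 lower genes without rescue, against the same 30.9%. With rescue it passed for 1 and 4, against 9.95%. After scaling these counts were 3 and 4, and 1 and 1.

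Each member was next set beside Atf4 over the 8 group means, a comparison chosen after the values had been seen. Herpud1 followed Atf4 closely, with a Pearson r of 0.97, and the 9 other members had r from -0.88 (Hspa5) to 0.37 (Calr). The groups are not spread evenly, since both si-CTL groups of day 0 are high in Atf4 and Herpud1 and low in Hspa5. Over the other 6 groups r was 0.80 for Herpud1 and 0.06 for Hspa5. Of 5393 genes outside the members with a mean of at least 3 and an SD of at least 0.2 over the group means, those most like Herpud1 included Psph, Mthfd2, Aars, Atf4, Stk38, Acss1, Mars1, Chac1 and Yars, with r from 0.98 to 0.95. Psph encodes the last enzyme of serine synthesis, Mthfd2 encodes an enzyme of mitochondrial folate metabolism, and Aars, Mars1 and Yars encode tRNA synthetases. These 9 genes all fell with knockdown at day 0, without and with rescue, Psph by 1.01 and 0.71 and Mthfd2 by 1.46 and 1.16. The 9 genes were picked for their likeness to Herpud1 over the same 8 group means, so a shared fall at day 0 follows from that choice. These values come from the same 8 groups and carry no p.

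The levels within a group gave a narrower view. As deviations from the group mean over all 24 libraries, Herpud1 had a Pearson r of 0.80 with Atf4, and Hspa5 of -0.59. Leaving out the 2 libraries farthest from the median of Atf4 gave 0.62 and -0.58. In si-CTL cells without rescue at day 4, replicate 2 was the highest of the 3 libraries in Herpud1 (3.88 against 3.57 and 3.43), Atf4 (6.86 against 6.49 and 6.38) and Chac1 (3.37 against 2.69 and 2.52), and the lowest in Hspa5 (8.02 against 8.13 and 8.17). Without the 6 si-CTL libraries of day 4, r was 0.26 for Herpud1 and -0.64 for Hspa5, so the relation of Herpud1 within groups rested on those 6 libraries.

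**Figure D5:**
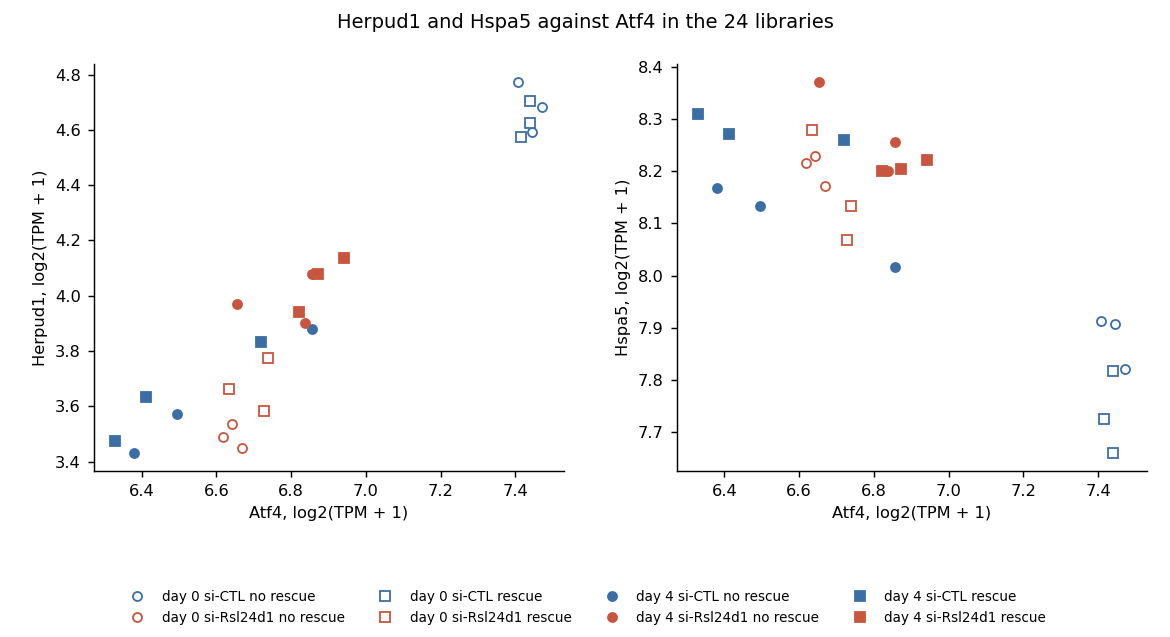
Herpud1 (left) and Hspa5 (right) against Atf4, all as log2(TPM + 1), with 1 point per library for 24 libraries. Colour gives the siRNA, shape the rescue and fill the day. The 6 si-CTL libraries of day 0 stand apart, with Herpud1 at 4.57 to 4.77 and Hspa5 at 7.66 to 7.91.

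The 10 members did not share 1 pattern over the groups. After each gene was centred and scaled over its 8 group means, each member was compared with the mean of the other 9. The Pearson r ran from -0.66 (Herpud1) and -0.29 (Creld2) to 0.65 (Dnajb9) and 0.72 (Pdia4). The genes outside the members whose group means were most like the mean of all 10 were Arid2, Rlf, Fam117b, Bmt2, Tjp1, Heatr5b, Ubr3 and Slc39a10, with r from 0.91 to 0.88 over 8 group means. All of these r were taken without median of ratios scaling. The mean of the members was lowest in rescued si-CTL cells of day 0, where the scaling factors were 0.90 to 0.98. It was highest in rescued si-CTL cells of day 4, where they were 1.02 to 1.07. The part of such library-wide shifts in the likeness was not tested.

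Ordered by group mean, Herpud1 was highest in both si-CTL groups of day 0 (4.68 and 4.63), which overlapped each other. They were followed, without overlap, by both si-Rsl24d1 groups of day 4 (4.05 and 3.98), and then by the other 4 groups (3.67 to 3.49), each of which overlapped its neighbour. Hspa5 differed from this at the same groups, with both si-CTL groups of day 0 lowest (7.88 and 7.73), apart from each other and from the other 6 (8.28 to 8.11), whose neighbours overlapped. The difference between these si-CTL groups, rescue minus no rescue, was -0.15 and did not pass (adjusted p = 0.051 from limma). It was 0.00 after median of ratios scaling. Both si-Rsl24d1 groups of day 4, which ranked next highest in Herpud1, were also among the higher groups in Hspa5 (8.28 and 8.21). Creld2 was highest in both si-Rsl24d1 groups of day 0 (5.72 and 5.68) and lowest in both si-Rsl24d1 groups of day 4 (5.25 and 5.24).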

How the data were processed

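RNA was sequenced from 24 libraries of CGR8 cells, 3 in each of 8 groups taken from the sample titles. The authors deposited 1 table of log2(TPM + 1) values for 54242 symbols, with TPM summing to 1000000 in each library. Per the study's methods, transcripts were quantified with Salmon and summed per gene on mouse annotation, whereas the submitters' processing notes list Salmon 1.4.0, STAR 2.7.8a and GRCh38, a human build. TPM keeps no read number, so libraries have no known depth and count models could not be used.

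The values were fitted with limma 3.58.1 in R 4.3.3, with 8 group means and a trended prior, over 16447 genes with a mean of at least 0.5. Tests were two-sided with Benjamini-Hochberg adjustment within each comparison, with 0.01 as the threshold on the adjusted p. Differential expression also required more than a 1.8-fold change. Intervals are 95%. An exact permutation test of 3 against 3 cannot go below 0.1 and was not used. Named were the 10 members, Rsl24d1, at most 2 rising and 2 falling genes per list, and the 8 genes most like the members' mean. The 4 further PERK genes named were added after their values were seen. The comparison with Atf4 and the genes most like Herpud1 were chosen after values were seen. 1 gene of that last list is not reported here. The members and lists were chosen with earlier results of these data known. The script was tested on simulated data. No libraries were identical. Alternatives were other pseudocounts, filters, a threshold of 0.05, scaling by median of ratios, the compared groups alone, a replicate block and each replicate left out.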

Additional observations from a re-analysis of the deposited data

Results flagged for a closer look

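By the limma interaction test, the effect of si-Rsl24d1 against si-CTL differed between day 0 and day 4 for some members. Of the 10, 3 passed without rescue, near the 30.9% of all genes, and 5 with rescue, against 9.95%. Given as the effect at day 4 minus that at day 0, the log2 differences without rescue were 1.55 for Herpud1, -0.51 for Sdf2l1 and -0.34 for Creld2. With rescue they were 1.37 for Herpud1, -0.69 for Sdf2l1, -0.50 for Hspa5, -0.30 for Creld2 and -0.25 for Xbp1. After median of ratios scaling, Creld2 (-0.23) and Xbp1 (-0.18) did not pass with rescue, whereas Hsp90b1 did (-0.17). Hspa5 then also passed without rescue (-0.31). Rsl24d1 itself was lower in si-Rsl24d1 cells at day 0 by 1.95 on the log2 scale and was at -0.04 at day 4, without rescue. The primitive endoderm markers, mostly Sparc, summed to 428 to 770 TPM at day 4 and 206 to 297 TPM at day 0. Their part in these differences was not tested.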

How the results depend on the processing

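No value of a member that passed changed its direction under any alternative run. Without rescue at day 0, the count of members that passed between the siRNAs (4) became 2 with median of ratios scaling or with only the groups compared, and 2 to 3 with 1 replicate left out. With rescue at day 0 (5), it became 2 with only the groups compared. Without rescue at day 4 (7), it became 2 with scaling, 1 with only the groups compared, and 3 to 8 with 1 replicate left out. With rescue at day 4 (1), it was 2 with 2 added to the TPM, with a filter at 1.5, with scaling or at 0.05, and 1 to 2 with 1 replicate left out. For rescue against no rescue at day 0, the count of 0 in si-Rsl24d1 cells became 2 with scaling, 1 at 0.05 and 0 to 1 with 1 replicate left out, and that in si-CTL cells became 4 at 0.05. At day 4, the 1 in si-Rsl24d1 cells became 0 with scaling or only the groups compared, 3 at 0.05 and 0 to 1 with 1 replicate left out, and the 4 in si-CTL cells became 1 with no filter and 0 to 4 with 1 replicate left out. The interaction of siRNA and rescue (0) became 1 at 0.05. The cause of these changes was not tested, except that a looser threshold passes more genes. The counts for RA and for both interactions with day stayed within 1.5 times.

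Replicates with the same number did not deviate together on average (mean correlation -0.0173 in 84 pairs, and 0.00865 in the 168 pairs of unlike numbers). No pairing by number was seen in this mean, which cannot exclude pairing among some of the groups. With a replicate block, 6 members passed at day 4 without rescue, 3 for rescue in si-CTL cells at day 4, and as many as without the block elsewhere. The depth is unknown, and the precision rests on 3 libraries per group.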
